A study of Mus musculus with 21 samples.

Results

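The genes described here are 10 secreted regulators of Wnt signalling: the ligands Wnt5a, Wnt6, Wnt11 and Wnt2b, and the antagonists Sfrp1, Sfrp2, Frzb, Wif1, Dkk2 and Dkk3. They were chosen by name, and every probe set whose single platform gene symbol was one of the 10 was taken, which gave 20 probe sets of 45101 on the array. After a filter on low values, 9 of the 10 genes were kept, among 14338 genes in all. Wnt2b did not pass, and the 20 probe sets are accounted for below.

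Transcript levels were measured on single-colour oligonucleotide arrays in whole testes of wild-type male CD-1 mice, an outbred stock, on gestation days (gd) 11, 12, 14, 16 and 18, and on day 2 after birth (pnd2). There were 5 arrays at gd11 and 3 at each later stage, 20 testis arrays in all, so that the question was how levels differ from one stage to the next. Per the labels, gd11 arrays held pools of 2 and gd12 arrays pools of 5, and no pool size is given for the later testis arrays. The series' own design text describes unpooled single animals in triplicate throughout, which conflicts with the labels for gd11 and gd12. The remaining array, the whole-litter reference, held RNA pooled from 8 whole newborns at pnd 0.5 (4 male and 4 female) and has no replicate; no strain is given for it. No group carried a treatment or a mutation. P-values rest on 1 spread per gene, taken over all 20 testis arrays and shared by all stages. At gd11 and gd12 the arrays differ as pools. A p-value thus does not measure the spread of the 2 compared stages alone, and stages differed in spread. For Wnt5a the SD was 54.5% of the mean at gd11 and 9.78% at gd18, and for Dkk2 32.7% and 61.7%.

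Wnt proteins are lipid-modified secreted ligands that bind Frizzled receptors. With the co-receptors Lrp5 and Lrp6 they stabilise beta-catenin, which acts with TCF/LEF factors on target genes, and through Ror and other receptors they also act without beta-catenin, on cell polarity and movement. Secreted Frizzled-related proteins (Sfrp1, Sfrp2 and Frzb, also called Sfrp3) and Wif1 bind Wnt ligands outside the cell. The Dickkopf proteins Dkk1 and Dkk2 act at the co-receptor. In the early gonad, Wnt4 and beta-catenin signalling favour the ovarian pathway, and the testis forms when Sox9 prevails over them. In the mouse, Sfrp1 and Sfrp2 have been linked to testis descent and gonad shape, and Wnt5a to outgrowth of the genital tubercle and ducts.

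Promoter windows of 7 of the 10 genes, 8 windows in all, were present in the RefSeq table of build GRCm38.p6 (250 bases before to 50 after an annotated start). The windows of a ligand that rose at gd12 and of 3 antagonists that were highest at gd11 are shown so that the letters searched can be read beside their values. Capitals mark a TCF/LEF core (CTTTGA or its reverse complement TCAAAG) or a TATA box (TATAAA or TTTATA), read on both strands. The windows are chr1:74771642-74771941 on the plus strand for Wnt6, chr3:83766071-83766370 on the plus strand for Sfrp2, chr2:80447347-80447646 on the minus strand for Frzb, and chr3:132085042-132085341 on the plus strand for Dkk2.
Wnt6: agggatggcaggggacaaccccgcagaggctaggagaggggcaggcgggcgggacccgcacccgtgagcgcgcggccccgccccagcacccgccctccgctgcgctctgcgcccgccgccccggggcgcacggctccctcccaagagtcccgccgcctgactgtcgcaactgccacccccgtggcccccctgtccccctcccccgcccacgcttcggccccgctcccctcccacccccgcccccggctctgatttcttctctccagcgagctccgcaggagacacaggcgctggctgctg
Sfrp2: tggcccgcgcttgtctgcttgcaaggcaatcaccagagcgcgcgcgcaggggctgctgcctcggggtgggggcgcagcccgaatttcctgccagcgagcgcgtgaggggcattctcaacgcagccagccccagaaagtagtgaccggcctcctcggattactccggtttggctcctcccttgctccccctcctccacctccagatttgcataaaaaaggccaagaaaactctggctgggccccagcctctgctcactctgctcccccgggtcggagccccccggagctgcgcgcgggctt
Frzb: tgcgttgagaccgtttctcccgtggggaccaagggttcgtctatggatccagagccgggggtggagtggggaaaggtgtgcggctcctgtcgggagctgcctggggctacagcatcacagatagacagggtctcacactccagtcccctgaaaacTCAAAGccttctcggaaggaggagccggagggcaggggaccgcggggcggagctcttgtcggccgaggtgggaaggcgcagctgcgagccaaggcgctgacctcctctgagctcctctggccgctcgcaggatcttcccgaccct
Dkk2: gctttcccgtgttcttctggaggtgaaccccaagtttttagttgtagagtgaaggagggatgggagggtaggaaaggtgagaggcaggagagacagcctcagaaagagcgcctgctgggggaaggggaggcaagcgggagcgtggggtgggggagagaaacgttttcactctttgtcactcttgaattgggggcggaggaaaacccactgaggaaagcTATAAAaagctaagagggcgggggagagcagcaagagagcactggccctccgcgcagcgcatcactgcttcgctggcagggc
The Frzb window held a TCF/LEF core beginning at -95 from the start, and the Dkk2 window a TATA box beginning at -32. No match lay in the Wnt6 or Sfrp2 window, nor in that of Wnt2b. Of the Wnt11 windows, 1 held a TCF/LEF core at -50 and a TATA box at -29, and the Wif1 window held a TATA box at -232. An Nr5a1 half-site, spelled AAGGTCA, was searched in the same way and lay in none of the 8 windows. The GATA site searched was AGATAA, and it had no match in them. The SOX core searched was AACAAT, again with no match. Over 32851 promoter windows of the same length, the TCF/LEF core was present in 16.0%, the TATA box in 13.6%, the GATA site in 11.2%, the SOX core in 10.7% and the Nr5a1 half-site in 4.72%. The Wnt6 window was 76.7% G and C with 31 CpG dinucleotides, that of Sfrp2 66.0% with 22, that of Frzb 64.7% with 20 and that of Dkk2 57.7% with 11, beside medians of 52.7% and 7 over all windows. A match is a string of letters and was not tested as a binding site.

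Intensities are the deposited linear values, and differences are on the scale log2(intensity + 22.4), with the standard error (SE) and adjusted p of 1 limma fit over all 20 testis arrays (Benjamini-Hochberg over the 14338 genes). A gene was called at an adjusted p under 0.05. Because of the added constant, differences of dim genes are understated. Stage means under 71.6, which is the 40th percentile of the testis intensities, are described as near background. Where a gene had several probe sets, the one with the highest mean stands for it, and the others are compared with it below. Array number limits the precision of every value. In whole-tissue RNA, fewer cells of a type and less RNA per cell cannot be told apart.

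The tissue labels were checked against marker lists. The summed intensity of 15 Sertoli cell genes, led by Clu and Inha, was 3730 to 11750 on the gd11 arrays, 29414 to 49762 at gd12, 75047 to 81561 at gd14 and 103448 to 116113 at pnd2. The whole-litter reference carries the source name of the testis samples, but its summed skeletal and cardiac muscle signal was 173429, beside 412 to 4340 on the testis arrays. Among the gd11 arrays, replicates 16 and 17 stood apart: the sum of 11 neural genes, led by Nefm and Nefl, was 79888 and 47193 there, against 4505 to 11500 on replicates 18 to 20. All 11 neural genes had their 2 highest gd11 values on these 2 arrays, and all 8 endothelial and all 8 macrophage genes their 2 lowest. At gd12, replicate 13 had a summed adrenal signal of 5267, against 915 and 1086 on the other gd12 arrays, and a germ cell sum of 10148, against 29833 and 34566. The part of these tissues in the results was not tested.

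Over the 6 stages, 8 of the 9 measured genes varied by the moderated F-test, beside 68.3% of all genes tested. The exception was Sfrp1 on its brightest probe set (adjusted p = 0.245 by limma). Its probe sets 1416594_at and 1460187_at were called in the fit of all probe sets (limma adjusted p = 0.00431 and 0.0428). The genes fell into different courses. Wnt6 and Wnt5a rose between gd11 and gd12, and Dkk3 between gd12 and gd14. Sfrp2, Frzb and Dkk2 had their highest means at gd11 and fell by gd12 or gd14. Later, Sfrp2 was higher at pnd2 than at gd14, and Frzb higher at pnd2 than at gd16. Wnt11 was lower at pnd2 than at gd11. Wif1 stood highest at gd14, with means near background at gd11 and from gd16 on.

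**Figure D1:**
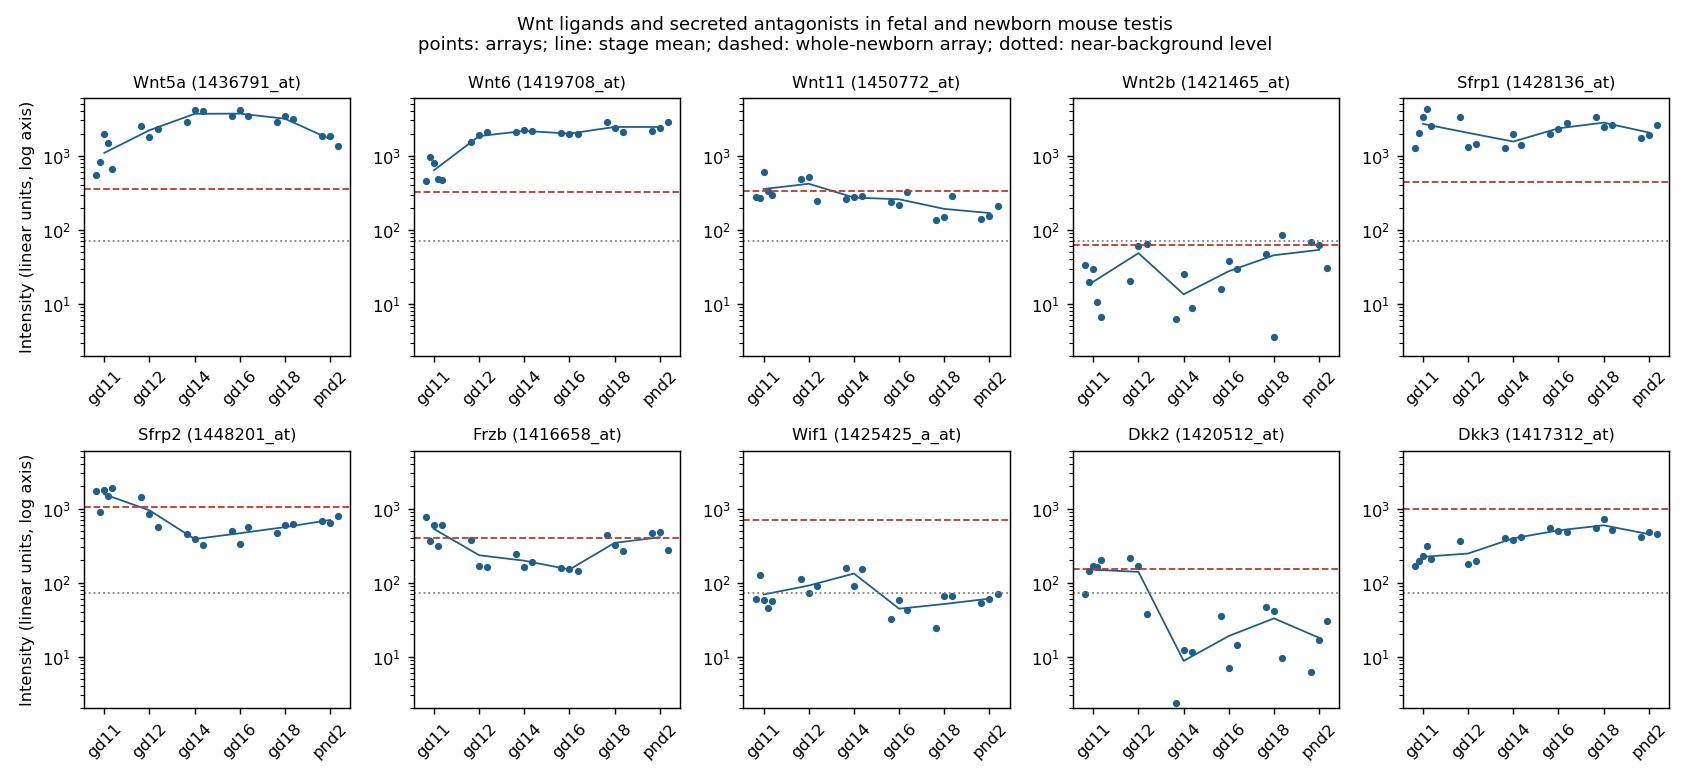
Intensity of the 10 genes on each array (points, log axis) by stage, with the stage mean as a line, the whole-litter reference as a dashed line and the near-background level of 71.6 as a dotted line. Wnt6 sat between 1532 and 2897 on all arrays after gd11, against 463 to 974 at gd11, whereas Dkk2 was at most 47.4 on every array from gd14 on, against 70.9 to 204 at gd11.

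Of the 9 genes, 2 rose and 2 fell at gd12 against gd11, where 21.4% of all genes were called, 11.2% higher and 10.2% lower. The gd12 and gd11 pools differ in their number of animals. At gd14 against gd12, 1 rose and 2 fell, beside 18.7% of all genes, 11.4% higher and 7.34% lower. At gd16 against gd14, Wif1 fell and the other 8 were not called, beside 10.4%, of which 5.39% were higher and 4.99% lower. At gd18 against gd16 limma called 0 of the 9, with 1 (Frzb) at an unadjusted p under 0.05, beside 4.88%, 1.7% higher and 3.18% lower. At pnd2 against gd18 limma also called 0, with 1 (Wnt5a) at an unadjusted p under 0.05, beside 7.8%, 2.54% higher and 5.26% lower.

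Over the whole span, pnd2 against gd11, 3 rose (Wnt6, Dkk3 and Wnt5a) and 3 fell (Dkk2, Sfrp2 and Wnt11), beside 48.6% of all genes called, 24.2% higher and 24.4% lower. The median difference of the 9 was -0.29, beside -0.03 over all genes. Every longer span reuses arrays of the adjacent pairs. Against gd11, limma called 7 of the 9 at gd14 (43.1% of all genes), 6 at gd16 (46.6%) and 6 at gd18 (47.2%). Against gd12 it called 3 at gd16 (29.2%), 3 at gd18 (33.4%) and 3 at pnd2 (34.8%). Against gd14 it called 1 at gd18 (26.3%) and 4 at pnd2 (31.7%), and against gd16 it called 2 at pnd2 (23.5%).

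**Figure D2:**
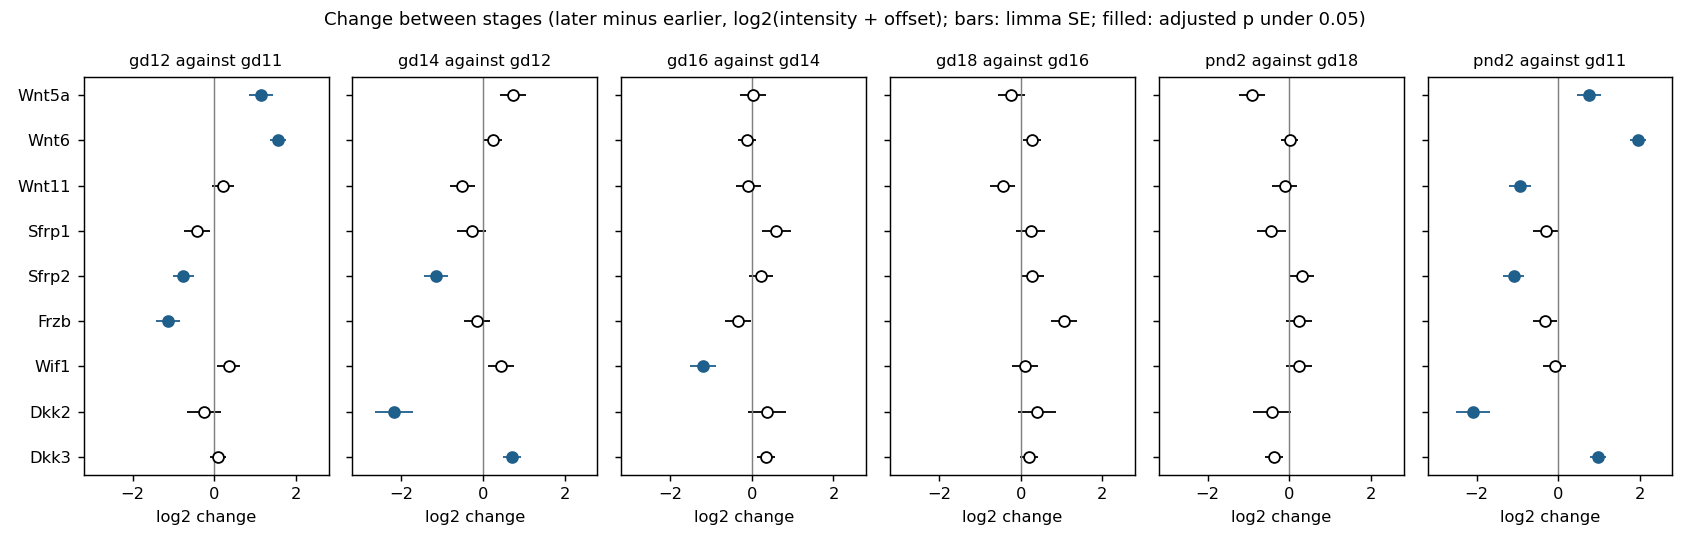
Log2 difference between stages (later minus earlier, points) with its limma SE (bars) for the 9 measured genes in 6 comparisons, with filled points for an adjusted p under 0.05. Most filled points lie in the comparisons of gd12 with gd11, gd14 with gd12 and pnd2 with gd11, and none in those of gd18 with gd16 or pnd2 with gd18.

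The calls at gd12 were also made without the arrays that stood apart. Without gd11 replicates 16 and 17, the differences between gd12 and gd11 were 1.65 for Wnt6, 0.81 for Wnt5a, -0.94 for Sfrp2 and -1.09 for Frzb, all still called. Without gd12 replicate 13 they were 1.68, 1.04, -1.10 and -1.49, again all called. Between gd14 and gd12, leaving out gd12 replicate 13 gave -1.79 for Dkk2 and 0.99 for Dkk3, both called, and -0.81 for Sfrp2, which was not (limma adjusted p = 0.0599). Without gd12 replicates 13 and 14 together, Wnt5a was not called at gd12 against gd11 (1.2, adjusted p = 0.0912). Of the 6 calls at pnd2 against gd11, that of Wnt5a alone was lost without gd11 replicates 16 and 17, and none was lost without gd12 replicate 13.

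Wnt6 encodes a ligand known from epithelial branching and stromal signalling. On probe set 1419708_at its intensity was 463, 974, 798, 485 and 473 on the 5 gd11 arrays, and 1532, 1894 and 2112 at gd12. It was 2095, 2230 and 2185 at gd14, 2020, 1991 and 1972 at gd16, 2897, 2381 and 2082 at gd18, and 2171, 2353 and 2830 at pnd2. Every later array lay above every gd11 array, and no pair of stages from gd12 on was called on this probe set. The gd12 mean was 1846 ± 293 (SD, n = 3), against 639 ± 234 at gd11 (SD, n = 5), a rise of 1.55 ± 0.20 (limma adjusted p = 1.98e-05). At pnd2 it was 2451 ± 340, 1.96 ± 0.20 above gd11 (limma adjusted p = 1.22e-07). The order of stage means was pnd2, gd18, gd14, gd16, gd12 and gd11, and only the step between gd12 and gd11 passed the test among neighbours in it. The second probe set, 1435980_x_at, differed by 2.76 ± 0.26 between pnd2 and gd11, and it was also called higher at pnd2 than at gd12, by 0.86 ± 0.29 (limma adjusted p = 0.0309). Its pnd2 values were 1092, 997 and 1116, against 94.1, 273, 207, 93.8 and 95.4 at gd11. Over the 20 arrays, the genes most correlated with Wnt6 were Tmem184a (Pearson r = 0.97), Cyp26b1, which degrades retinoic acid (0.96), and Serpinb1a (0.96). In all, 113 genes had r above 0.9 with it, and the arrays share stage and tissue composition, so these values are descriptions.

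Wnt5a encodes the ligand best known for signalling without beta-catenin in outgrowing mesenchyme. Probe set 1436791_at read 554, 833, 1952, 1477 and 664 at gd11, 2560, 1810 and 2279 at gd12, and 2872, 4147 and 4063 at gd14. At gd16 it read 3494, 4191 and 3450, at gd18 2857, 3477 and 3177, and at pnd2 1853, 1836 and 1347. The course was an arch, with gd14 and gd16 highest, and the pnd2 arrays lay within the range of the gd11 arrays. The rise at gd12 over gd11 was 1.15 ± 0.29 (limma adjusted p = 0.00766), although 1 gd11 array lay above 1 gd12 array. Between gd14 and gd12 the difference of 0.73 ± 0.32 was not called (limma adjusted p = 0.125). Without gd11 replicates 16 and 17 it was called (adjusted p = 0.0457) at the same value of 0.73, as those arrays belong to neither stage. The pnd2 mean of 1679 ± 287 was below that of gd14, 3694 ± 713, by -1.12 ± 0.32 (limma adjusted p = 0.0113) and below that of gd16, 3712 ± 416, by -1.14 ± 0.32 (adjusted p = 0.0139). Against gd18 the difference of -0.92 ± 0.32 missed the threshold (adjusted p = 0.086), while the 2 groups' arrays did not overlap. A fit of pnd2 and gd18 alone called it (adjusted p = 0.00297), whereas a fit of gd12 and gd11 alone did not call the rise at gd12.

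Whether Wnt5a was higher at pnd2 than at gd11 depended on the gd11 arrays. With all 5 the difference was 0.75 ± 0.29 (limma adjusted p = 0.0367). It was 0.41 and not called without gd11 replicates 16 and 17 (adjusted p = 0.205), which read 554 and 833. The call was also lost on leaving out 1 of pnd2 replicate 1, pnd2 replicate 2, gd11 replicate 16, gd11 replicate 17 or gd11 replicate 20, with values of 0.67, 0.68, 0.55, 0.69 and 0.62. Of the 4 Wnt5a probe sets, 3 were called for this comparison and all 4 were called higher at gd12 than at gd11. The fourth, 1456976_at, differed by 0.74 ± 0.34 between pnd2 and gd11 (adjusted p = 0.0869 by limma over all probe sets). Its gd11 values of 17.8 and 52.1 on replicates 16 and 17 were near background, against 156, 142 and 139 on the other 3. All 4 probe sets were called lower at pnd2 than at gd16. Stc1, encoding stanniocalcin, was the gene most correlated with Wnt5a (r = 0.95 over 20 arrays), followed by Timp1, a metalloproteinase inhibitor, and the integrin gene Itga6 (0.92 each).

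Wnt11 encodes a further ligand known for signalling without beta-catenin, and in the mouse ureteric tip for kidney branching. Its 1 probe set, 1450772_at, read 280, 266, 602, 334 and 298 at gd11, 493, 517 and 246 at gd12, and 257, 278 and 284 at gd14. At gd16 the values were 237, 215 and 323, at gd18 138, 150 and 287, and at pnd2 142, 156 and 209. All pnd2 arrays were below all gd11 and gd12 arrays. The pnd2 mean of 169 ± 35.1 was below the gd11 mean of 356 ± 140 by -0.94 ± 0.27 (limma adjusted p = 0.0082) and below the gd12 mean of 419 ± 150 by -1.15 ± 0.31 (adjusted p = 0.00642). No adjacent pair of stages passed the test, and without gd12 replicates 13 and 14 the difference from gd12 was -0.51 (adjusted p = 0.409). No gene had r above 0.9 with Wnt11, and the closest were the unnamed loci 4930594M22Rik (r = 0.88), A330001L22Rik (0.85) and E330013P04Rik (0.85).

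Wnt2b, a ligand related to Wnt2, had 1 probe set, 1421465_at, above its array's 40th percentile on 2 of 20 testis arrays. It ranged from 3.56 to 85.7 over the testis arrays, with a median of 29.6, and every stage mean was near background. Without the filter, over 18193 genes, its F-test gave an adjusted p of 0.177 by limma, and no pair of stages was called.

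Sfrp2 encodes a soluble Frizzled-related protein. Its probe set 1448201_at read 1756, 888, 1799, 1485 and 1877 at gd11, 1429, 857 and 559 at gd12, and 456, 383 and 325 at gd14. Values of 505, 328 and 563 at gd16, 470, 608 and 611 at gd18, and 672, 643 and 793 at pnd2 followed. The lowest stage means were those of gd14 and gd16, and all arrays from gd14 on lay below every gd11 array. The gd12 mean of 948 ± 443 was below the gd11 mean of 1561 ± 404 by -0.76 ± 0.26 (limma adjusted p = 0.0426). That call was lost in a fit of gd12 and gd11 alone and on leaving out any of 11 single arrays. Some of the 11 were of other stages, which leave the difference as it is and change the spread shared by all stages. The difference was -0.44 without gd12 replicate 15. The gd14 mean of 388 ± 65.8 was below that of gd12 by -1.15 ± 0.29 (adjusted p = 0.00895), and without gd12 replicates 13 and 14 by -0.51 (adjusted p = 0.437). Between gd14 and gd11 the fall was -1.91 ± 0.26 (limma adjusted p = 8.63e-06). Thereafter Sfrp2 was higher again, at pnd2 by 0.83 ± 0.29 over gd14 (adjusted p = 0.035). It remained lower at pnd2 than at gd11, by -1.09 ± 0.26 (adjusted p = 0.00183). Foxp1, a forkhead transcription factor gene, Nrp1, the neuropilin gene, and Dzip1 were the genes most correlated with it (r = 0.92, 0.91 and 0.91).

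Frzb encodes the Frizzled-related protein first known from cartilage. On 1416658_at it read 770, 362, 600, 316 and 609 at gd11, 374, 169 and 161 at gd12, and 241, 165 and 189 at gd14. At gd16 it read 156, 152 and 144, at gd18 446, 320 and 269, and at pnd2 469, 486 and 277. Its course was the reverse of an arch: the gd16 arrays were the lowest, and all gd18 and pnd2 arrays lay above them. The gd12 mean of 235 ± 120 was below the gd11 mean of 532 ± 189 by -1.13 ± 0.29 (limma adjusted p = 0.00858). It was -0.97 without gd12 replicate 14 and -0.94 without gd12 replicate 15, neither called. Nor was the fall called in a fit of gd12 and gd11 alone. The pnd2 mean of 411 ± 116 was above the gd16 mean of 151 ± 6.27 by 1.28 ± 0.32 (adjusted p = 0.00692), and above that of gd14 by 0.95 ± 0.32 (adjusted p = 0.0299). Between gd18 and gd16 the difference was 1.06 ± 0.32 (adjusted p = 0.065). The second probe set, 1448424_at, gave -1.18 ± 0.31 for gd12 against gd11 and 1.09 ± 0.35 for pnd2 against gd16, both called. For pnd2 against gd14 it gave 0.77 ± 0.35 and was not called (adjusted p = 0.111), and the mean of both probe sets gave 0.86 (adjusted p = 0.0551). That call was also lost on leaving out pnd2 replicate 1, pnd2 replicate 2, gd14 replicate 11 or gd14 replicate 12, at values of 0.81 to 0.93. The sum of 9 cartilage and bone genes was 2941 to 11682 on the gd11 arrays, 3012 to 4478 at gd12 and 1191 to 2002 on the arrays from gd14 to pnd2, and its part in the Frzb values was not tested. Cd2bp2, Mzt2 and D430019H16Rik were the genes most correlated with Frzb (r = 0.89, 0.86 and 0.83).

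Sfrp1 had 5 probe sets, which differed in their calls, as those of Wnt5a, Frzb and Dkk3 did in some comparisons. The brightest, 1428136_at, read 1289, 2031, 3383, 4280 and 2504 at gd11, 3381, 1301 and 1444 at gd12, and 1284, 1998 and 1388 at gd14. It then read 1981, 2321 and 2752 at gd16, 3364, 2480 and 2572 at gd18, and 1718, 1898 and 2577 at pnd2. The gd11 arrays alone spanned most of the range, and no pair of stages was called. Probe set 1416594_at was called by the F-test (adjusted p = 0.00431 by limma over 26713 probe sets) and stood at 2037 ± 101 at gd18, against 1082 ± 524 at gd11 and 688 ± 274 at gd12. Those differences were 1.06 ± 0.31 over gd11 (adjusted p = 0.00995) and 1.61 ± 0.35 over gd12 (adjusted p = 0.00181). The F-test also called 1460187_at (limma adjusted p = 0.0428) and did not call 1448395_at (adjusted p = 0.0607). Of the 5 probe sets, 3 were called higher at gd18 than at gd12 and at gd14, and 1438620_x_at varied least (F-test adjusted p = 0.873). Without gd11 replicates 16 and 17, 1428136_at was called lower at gd12 than at gd11, by -0.83 (adjusted p = 0.0386), and lower at pnd2 than at gd11, by -0.70 (adjusted p = 0.0444). Those 2 replicates held the lowest values of 1428136_at among the gd11 arrays. Adamts1, a matrix protease gene, was the gene most correlated with it (r = 0.90), followed by Lbp (0.85) and Dync2li1 (0.84).

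**Figure D3:**
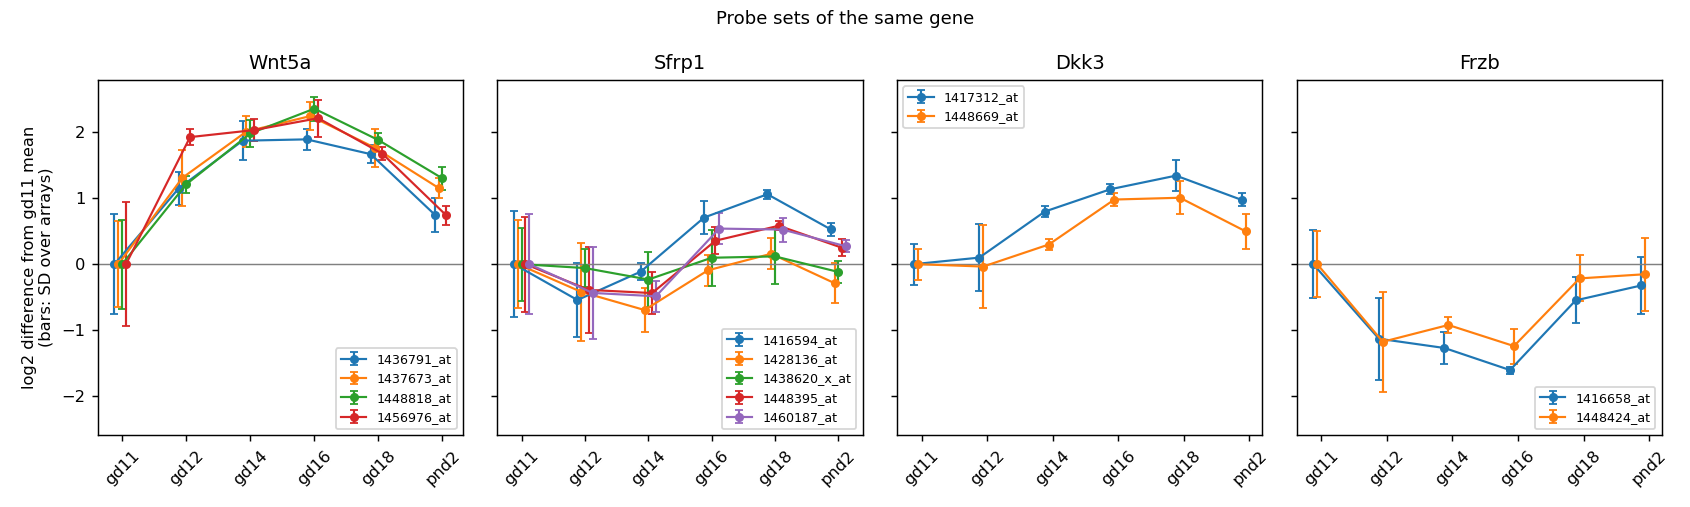
Mean log2(intensity + 22.4) of every probe set of Wnt5a, Sfrp1, Dkk3 and Frzb by stage, as the difference from its own gd11 mean, with the SD over arrays as bars. The Wnt5a probe sets ran together through an arch, while at gd18 the Sfrp1 probe sets ranged from 0.12 for 1438620_x_at to 1.06 for 1416594_at.

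Dkk2, which encodes a Dickkopf protein that can block or, in some settings, assist the Lrp5 and Lrp6 co-receptors, was measured by 1420512_at. The values were 70.9, 145, 165, 164 and 204 at gd11 and 215, 166 and 38.3 at gd12. They were 2.39, 12.2 and 11.7 at gd14, 35.8, 7.03 and 14.3 at gd16, 47.4, 41.7 and 9.69 at gd18, and 6.23, 17.1 and 30.7 at pnd2. From gd14 on every stage mean was near background, and no array reached the gd11 values. The gd14 mean of 8.77 ± 5.53 was below the gd12 mean of 140 ± 91.3 by -2.18 ± 0.47 (limma adjusted p = 0.0031), and pnd2 was below gd11, which averaged 150 ± 49.0, by -2.08 ± 0.42 (adjusted p = 4.22e-04). Of the gd12 arrays, replicate 15 alone read near background, and without replicates 13 and 14 the gd14 difference was -0.98 (adjusted p = 0.362). Calb1, which encodes calbindin, was the gene most correlated with Dkk2 (r = 0.94), followed by Shisa3 (0.93) and Rspo3, encoding an R-spondin (0.92). The sum of 9 mesonephros and duct epithelium genes, led by Emx2 and Epcam, was 3594 to 11604 at gd11, 3822 to 5210 at gd12, 1885 to 2101 at gd14 and 1275 to 2247 at pnd2. Its part in the Dkk2 and Sfrp2 values was not tested.

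Dkk3 encodes a divergent Dickkopf protein. It was called higher at gd14 than at gd12 and not at gd12 than at gd11. Probe set 1417312_at read 166, 197, 232, 312 and 209 at gd11, 366, 181 and 195 at gd12, and 402, 371 and 419 at gd14, followed by 541, 497 and 487 at gd16, 555, 715 and 516 at gd18, and 416, 479 and 461 at pnd2. All arrays from gd14 on lay above all gd11 and gd12 arrays. The gd14 mean of 397 ± 24.2 was above the gd12 mean of 248 ± 103 by 0.70 ± 0.22 (limma adjusted p = 0.0312). Leaving out any of 5 single arrays ended that call, at values of 0.53 to 0.75. It was also lost with the mean of both probe sets, at 0.52 (adjusted p = 0.0859), and in a fit of gd14 and gd12 alone (adjusted p = 0.08). The second probe set, 1448669_at, gave 0.33 ± 0.24 for this comparison and was not called (adjusted p = 0.389). The pnd2 mean of 452 ± 32.5 was above the gd11 mean of 223 ± 55.3 by 0.98 ± 0.20 (limma adjusted p = 4.03e-04). On 1448669_at that difference was 0.50 ± 0.22 and not called (adjusted p = 0.0671), whereas gd16 and gd18 were called above gd11 on both. Ndrg2, Adh1 and Dnaaf1 were the genes most correlated with Dkk3 (r = 0.94 each).

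Wif1 encodes a Wnt-binding inhibitor with a WIF domain. Its probe set 1425425_a_at was dim, at 59.3, 125, 58.3, 45.7 and 57.3 at gd11, 111, 72.5 and 90.5 at gd12, and 157, 90.3 and 151 at gd14. Later values were 32.4, 58.6 and 42.5 at gd16, 24.1, 65.2 and 65.2 at gd18, and 53.2, 59.7 and 69.5 at pnd2. The gd11 mean of 69.2 ± 31.9 was near background. Between gd14 and gd12 the difference of 0.43 ± 0.32 was not called (limma adjusted p = 0.386). Every array from gd16 on was below every gd14 array. The gd16 mean of 44.5 ± 13.2, near background, was below the gd14 mean of 133 ± 36.9 by -1.20 ± 0.32 (limma adjusted p = 0.0227). That call was lost without gd16 replicate 7, gd16 replicate 9, gd14 replicate 10 or gd14 replicate 12, at values of -1.07, -1.19, -1.08 and -1.11. Of the 20 testis arrays, 7 exceeded the near-background level for Wif1, all of them at gd11, gd12 or gd14. Wif1 passed the filter through stages where it was high, which include the gd14 side of this call. The closest genes to Wif1 over the arrays were Ddx27, encoding an RNA helicase (r = 0.80), Bcl10 and Cwf19l1 (0.78 each).

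Among the gd11 arrays themselves, members and other tissues varied together in part. Of the 9 measured genes, 4 had their 2 lowest gd11 values on replicates 16 and 17, and 1 had its 2 highest there. Sfrp1, Dkk2 and Wnt5a were furthest below their gd11 log2 mean on replicate 16, by -0.95, -1.0 and -0.82. The neural sum on that array was 2.26 above its own mean, and the mesonephros and duct sum -0.81. On replicate 19 the mesonephros and duct sum was highest, at 0.88 above its mean, and so were Sfrp1, at 0.78, and Dkk3, at 0.52. Other members went the other way. Frzb and Wif1 were lowest on replicate 19, at -0.67 and -0.50. On replicate 16 Frzb was highest, at 0.61, and Sfrp2 was above its mean, at 0.22. What the tissue content contributed was not tested.

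**Figure D4:**
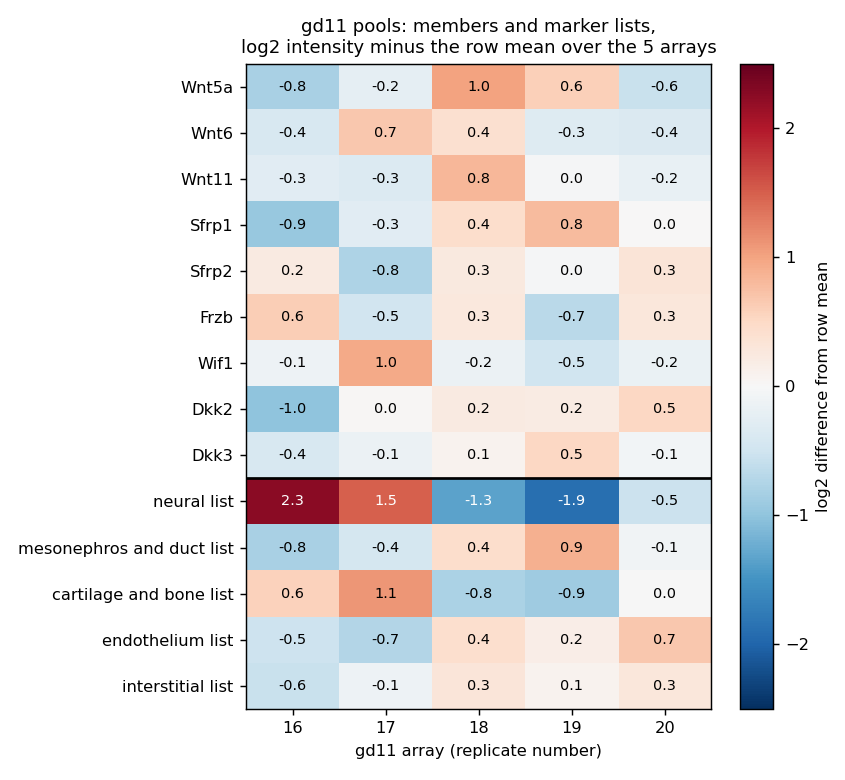
Each cell gives a log2 intensity on 1 of the 5 gd11 arrays minus the row's mean over them, for the 9 measured genes (upper block) and for summed marker lists (lower block). Replicates 16 and 17 were high in neural genes, at 2.26 and 1.5, and Sfrp1 and Wnt5a were below their means on both. Frzb was above its mean on replicate 16, at 0.61, and below it on replicate 17, at -0.47.

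Over the 20 testis arrays, the members' log2 values correlated with each other as follows, as descriptions over arrays that share stage. Sfrp2 ran with Dkk2 (Pearson r = 0.82) and Frzb (0.71), and against Wnt6 (-0.82) and Wnt5a (-0.77). Wnt5a ran with Wnt6 (0.73) and Dkk3 (0.71). Wif1 had its highest r with Wnt11 (0.26) and its lowest with Sfrp1 (-0.47).

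The rest of the pathway was compared between pnd2 and gd11, where 24.4% of all genes were called lower and 24.2% higher. Of 9 measured other Wnt ligands, 2 fell and 0 rose, a share near that of all genes. Wnt4, which promotes the ovarian pathway, had a pnd2 mean of 408 ± 35.3, against 2547 ± 988 at gd11, a fall of -2.49 ± 0.28 (limma adjusted p = 5.88e-07), and Wnt9b, known from the mesonephric duct, fell by 3.21 on the log2 scale to near background. Of 9 listed beta-catenin target genes that were measured, 7 fell and 0 rose. Lef1, a partner of beta-catenin, had a pnd2 mean of 84.7 ± 21.3, against 520 ± 51.3 at gd11 (-2.35 ± 0.17, limma adjusted p = 1.75e-09). Ccnd1, encoding cyclin D1, fell by 2.39, Bmp4, encoding a growth factor, by 2.08, the transcription factor gene Sp5 by 1.5 and the feedback inhibitor gene Axin2 by 1.06. With the mean of its probe sets Axin2 was at -0.61 and not called (adjusted p = 0.112), and the call was also lost in a fit of pnd2 and gd11 alone (adjusted p = 0.0543). The median of these targets was -1.36, beside -0.03 over all genes, and Ccnd1 and Bmp4 also answer to other pathways. Over the same comparison, 9 of 11 neural genes fell (median -3.35), as did 6 of 9 mesonephros and duct genes (-2.68), 6 of 9 skeletal and cardiac muscle genes (-1.36) and 5 of 10 limb and body wall mesenchyme genes (-0.87). Of 6 erythroid genes 5 fell (-5.22), and of 8 endothelial genes 5 fell and 1 rose (-1.07). In the other direction, 12 of 15 Sertoli cell genes rose (5.05), as did all 8 fetal Leydig cell genes (4.35). So did 6 of 8 smooth muscle and peritubular genes (2.02). The part of these cells and tissues in the pathway counts was not tested. Of 19 receptors and co-receptors, 8 fell and 1 rose, with Fzd10 at -2.06, Ror1, a Wnt5a receptor, at -1.58, Fzd4 at -1.28 and Fzd1 at -1.20. Of 16 intracellular and polarity genes, 6 fell and 2 rose. Among those that fell were Vangl2 and Celsr1, both polarity genes, at -1.67 and -1.04. Bcl9, Tcf7l1 and Ctnnb1, which encodes beta-catenin, fell by 0.84, 0.55 and 0.48.

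Of 7 genes for Wnt secretion, R-spondins and Notum, which inactivates Wnt ligands, 3 fell and 1 was called higher. Notum fell by 2.25, Rspo3 by 1.98 and Wls, the Wnt carrier, by 0.42, while Rspo4 was called higher with both stage means near background, a call that was lost at an offset of 100 (adjusted p = 0.0682). Of 9 measured other antagonists, 1 fell and 1 rose. Dkk1, the Dickkopf antagonist of Lrp6, had a pnd2 mean of 23.8 ± 10.1, near background, against 493 ± 305 at gd11 (-3.22 ± 0.42, limma adjusted p = 3.26e-06). Sfrp4 had a pnd2 mean of 465 ± 57.4, against 125 ± 46.7 (1.78 ± 0.24, limma adjusted p = 4.74e-06). Within both antagonist families members moved in both directions: Dkk3 and Sfrp4 rose, and Dkk1, Dkk2 and Sfrp2 fell.

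Against the whole-litter reference, 3 of the 9 measured genes lay above it on all 3 pnd2 arrays and 5 below, where 47.3% of all genes lay above and 38.1% below. The reference has no replicate, so no test was made. Wnt6 was 2171, 2353 and 2830 at pnd2, against 328 in the reference, a 7.02-fold difference on the offset scale. Sfrp1 averaged 2064 ± 453 at pnd2, against 437 in the reference, and Wnt5a 1679 ± 287, against 360, and for these 3 genes all 20 testis arrays lay above the reference. Wif1 was 53.2, 59.7 and 69.5 at pnd2, near background, against 710 in the reference, and its difference ran from -2.33 at an offset of 100 to -3.45 at an offset of 5. Dkk3 was 416, 479 and 461 at pnd2, against 1004 in the reference, and no testis array exceeded the reference for Wif1 or Dkk3. Dkk2 averaged 18.0 ± 12.2 at pnd2, against 154, Wnt11 169 ± 35.1, against 332, and Sfrp2 703 ± 79.7, against 1060. Frzb straddled the reference, at 469, 486 and 277 against 407, and Wnt2b likewise, at 67.7, 62.7 and 30.4 against 62.7. The reference array also held far more signal from muscle, given above, and from cartilage and bone genes, summed at 30615, against 1191 to 1378 at pnd2.

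**Figure D5:**
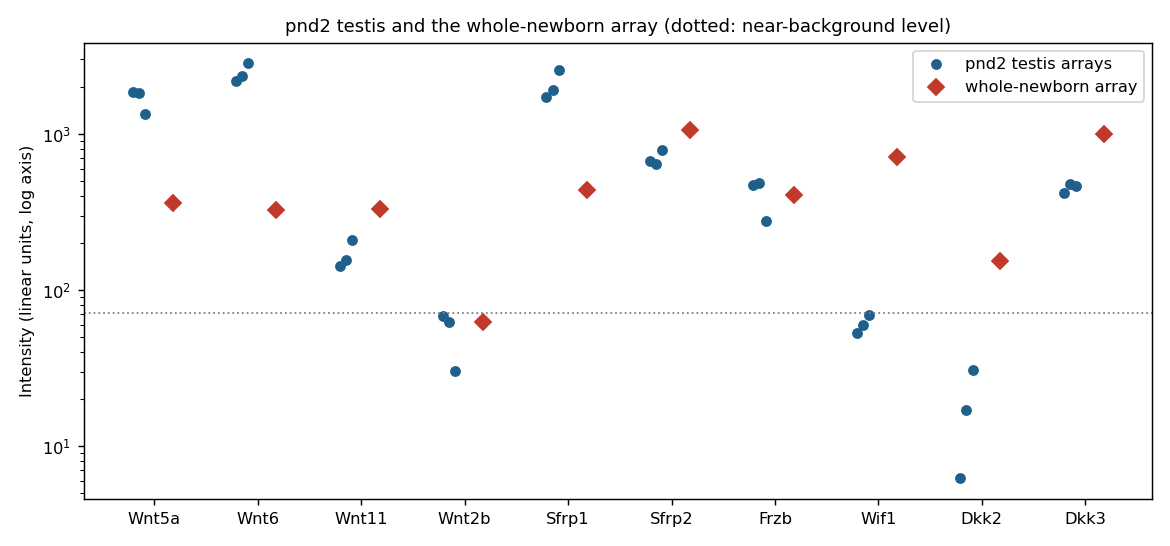
Intensity (log axis) of the 10 genes on the 3 pnd2 testis arrays (points, left) and in the whole-litter reference (diamond, right), with the near-background level of 71.6 dotted. Wnt5a, Wnt6 and Sfrp1 lie above the reference on all 3 arrays, and Wnt11, Sfrp2, Wif1, Dkk2 and Dkk3 below it.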

How the data were processed

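Intensities per probe set from 21 single-colour arrays were used as deposited by the authors. The submitters' processing notes name GCOS, the array maker's analysis software, with no release or algorithm. The mean of each array after trimming 2% at each end was 500.0, so no further scaling was applied. Detection calls, scan dates and batches were not used here. Gene symbols came from the platform's probe set table: 34945 of 45101 probe sets carried 1 gene, 932 several, 9160 none and 64 were controls. Of the 34945, 34741 matched RefSeq's mouse genes (assembly GRCm38.p6) through their Entrez identifiers, and 0 symbols changed.

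The fit used log2(intensity + 22.4), with the testis intensities' 20th percentile as the added constant. A probe set was kept if 3 or more of the 20 testis arrays had it over their own 40th percentile, and each gene kept the probe set of highest mean, for 14338 genes. The probe set fit used 26713 probe sets. limma 3.58.1 in R 4.3.3 (lmFit, eBayes with trend) fitted 6 stage means with 14 residual degrees of freedom, Benjamini-Hochberg adjusted within each comparison at 0.05, and was tested on simulated data. A single spread per gene is shared by all stages, so leaving out an array of another stage can change a call but not the difference. The members and lists were chosen with earlier results of these data known. All 10 members are named, with the 3 genes most correlated with each and, per pathway list, the 4 called genes that differed most between pnd2 and gd11, plus Axin2, Lef1, Ctnnb1 and Wnt4. Alternatives changed the offset, the filter, the normalization, the probe sets, the samples in the fit, the trend and the array weights, and left out arrays. Promoter sequences are RefSeq's.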

Additional observations from a re-analysis of the deposited data

Results flagged for a closer look

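2 values stood apart among the 5 gd11 arrays by Dixon's test, for which the gap to the nearest array exceeded 0.71 of the group's range. Wnt11 (1450772_at) read 602 on gd11 replicate 18, against 266 to 334 on the other gd11 arrays. Wif1 (1425425_a_at) read 125 on gd11 replicate 17, against 45.7 to 59.3 on the others. The test was made on 20 probe sets, and chance flags about 1 in 20 groups. For Wnt11, pnd2 against gd11, the difference without gd11 replicate 18 was -0.74 and still called (limma adjusted p = 0.0198).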

How the results depend on the processing

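No paired analysis was possible because the replicate numbers run on across the series and pair no samples. With 3 to 5 arrays a stage, array number and the low signal of Dkk2, Wif1 and Wnt2b limit which genes are called, and Wnt2b entered only the fit without a filter. Dkk2 and Wif1 passed the filter through stages where they were high, and the counts of called genes include their falls. Under the alternatives named here no called result changed direction.

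Of the 9 measured genes, the fit of all stages called 4 at gd12 against gd11, 3 at gd14 against gd12, 1 at gd16 against gd14, and 0 at both gd18 against gd16 and pnd2 against gd18. A fit of only the 2 stages compared called 1 at gd12 against gd11 (Wnt6), 2 at gd16 against gd14 (Wif1 and Sfrp1), 1 at gd18 against gd16 (Frzb) and 1 at pnd2 against gd18 (Wnt5a), and over all genes it called 1286 at gd12 against gd11, where the fit of all stages called 3067. The cause was not tested. Frzb was also called at gd18 against gd16, giving 1, under quantile normalization, with array weights, with gd11 replicates 16 and 17 left out, and when gd12 replicates 13 and 14 were dropped. Wnt5a was called at pnd2 against gd18, giving 1, with array weights and without gd11 replicates 16 and 17. Above the 60th percentile 7 of the 9 genes were left, without Wif1, and 0 were called at gd16 against gd14. Without gd12 replicates 13 and 14, 1 was called at gd14 against gd12, where the lone gd12 array is assumed to vary like the other stages.

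Leaving out 1 array at a time gave 2 to 4 called genes at gd12 against gd11, 2 to 3 at gd14 against gd12, 0 to 1 at gd16 against gd14, at gd18 against gd16 and at pnd2 against gd18, 5 to 6 at pnd2 against gd11 and 7 to 9 by the F-test. Over all member and pathway comparisons and arrays left out, 1630 called values stayed called and 110 did not, and of the uncalled values 3559 stayed so and 41 became called. Under the other alternatives 852 stayed called and 55 did not, and of the uncalled values 1823 stayed so and 84 became called. The shares over all genes given earlier are those of the main fit. Against the reference, the 8 genes with all pnd2 arrays on one side kept their sign, and Wnt2b and Frzb, which straddled it, changed sign on leaving out 1 pnd2 array. At an offset of 5 the difference was -2.94 for Dkk2 and -3.45 for Wif1, and at an offset of 100 it was -1.11 and -2.33.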
